A study of Mus musculus with 18 samples.

Results

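The 10 choroid plexus marker genes *Ttr*, *Kcne2*, *Kl*, *Folr1*, *Clic6*, *Aqp1*, *Otx2*, *Prlr*, *Slc4a5* and *Sostdc1* were followed through 18 RNA sequencing libraries of adult mouse brain. They were taken from a named list of markers and matched by symbol to the identifiers of the 38561 genes counted, and 10 of 10 were found. The markers were chosen by the CPM levels that set single libraries apart in earlier results of these same data, so the levels of the markers across libraries are given as a description and without a test. The libraries came from 3 dissected regions, namely frontal cortex, striatum and hippocampus, of WT and *Pcm1*-/- mice (KO in the sample names), with 3 libraries per genotype and region. All animals were adults of the C57 Bl6J background with no treatment named, and WT mice were littermates of the mutants. The mutant line was derived from embryonic stem cells with a gene-trap insertion in *Pcm1*, which encodes a protein of the centriolar satellites, and it was backcrossed for a few generations. No cell type was sorted, so each library is a bulk measurement of a dissected region.

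The choroid plexus is a folded tissue that hangs in the ventricles of the brain and secretes the cerebrospinal fluid. Its epithelium is a layer of cells joined by tight junctions over a stroma with fibroblasts and leaky capillaries. The epithelium makes transthyretin in very large amounts, moves ions and water from blood to fluid, and carries folate and hormones across the same barrier. Both the striatum and the hippocampus border on ventricles that hold it. In bulk tissue, fewer cells of a type and less RNA per cell cannot be told apart.

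The deposited values are whole-number read counts per gene, and 24950537 to 33405081 reads per library were counted on genes. *Pcm1* fitted the genotype label of every library, with 3425 to 4919 reads in the WT and 313 to 520 in the mutant libraries. Markers of the neurons of each region fitted the tissue labels. The 6 striatal neuron genes summed to between 5162 and 6675 CPM (counts of a gene scaled to a common library size) in the striatum and to at most 193 CPM elsewhere, the 6 cortical ones to between 826 and 952 CPM in the frontal cortex and at most 237 CPM elsewhere, and the 6 hippocampal ones to between 530 and 821 CPM in the hippocampus and at most 278 CPM elsewhere. Libraries of the same animal could be followed through the regions by the animal numbers that come with the deposited data. Of the 18 libraries, 6 held 1437 to 2303 reads on the Y-linked gene *Ddx3y* and 10 to 24 reads on *Xist*, the RNA of the silent X chromosome. The other 12 held at most 3 *Ddx3y* reads and 8361 to 15627 *Xist* reads. The 6 were all the libraries of 1 WT and 1 mutant animal, so each group of 3 held 1 of them.

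The libraries that stood apart in the markers came from these animals. Striatum WT replicate 3 held 161015 reads of *Ttr*, whereas the other 5 striatum libraries held between 81 and 3946. Hippocampus KO replicate 2 held 3912 *Ttr* reads, whereas the other 5 hippocampus libraries held between 57733 and 151583. Striatum WT replicate 3 came from the same animal as frontal cortex WT replicate 2, which had the most *Ttr* reads of its region, and as hippocampus WT replicate 2. The mutant animal with the least *Ttr* in its hippocampus gave the most *Ttr* of the mutant striatum libraries. The part of sex in these differences was not tested. Genotype differences of the markers that rest on striatum WT replicate 3 or hippocampus KO replicate 2 are therefore given with and without that library in the main test. Correlations across libraries and the second test (DESeq2) used all libraries.

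The markers lie on 8 chromosomes of the mouse genome GRCm38. *Kcne2* (ENSMUSG00000039672, chr16:92292389-92298129) and *Clic6* (ENSMUSG00000022949, chr16:92485736-92541243) lie on the plus strand of chromosome 16 with 187606 bases between them, and *Aqp1* (ENSMUSG00000004655, chr6:55336432-55348555) and *Slc4a5* (ENSMUSG00000068323, chr6:83219828-83304945) share chromosome 6. *Ttr* is ENSMUSG00000061808. *Otx2* (ENSMUSG00000021848) lies on the minus strand at chr14:48657677-48673819, *Kl* (ENSMUSG00000058488) at chr5:150952607-150993817, *Folr1* (ENSMUSG00000001827) at chr7:101858331-101870788, *Prlr* (ENSMUSG00000005268) at chr15:10177238-10349180 and *Sostdc1* (ENSMUSG00000036169) at chr12:36314139-36318452. *Folr1* overlaps *Anapc15* on the opposite strand, and *Clic6* and *Prlr* overlap annotated genes on their own strand, so reads in the overlaps could have been counted for neither or for the other gene.

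Promoter windows of RefSeq, from 250 bases before to 50 bases after a transcript start on GRCm38.p6, were at hand for 6 of the 10 markers, in 12 windows. Since the markers moved together across libraries, the windows were searched on both strands for TAATCC, the core letters bound by Otx proteins, and for TATAAA, the letters of a TATA box, and the motifs did not overlap in the windows shown. TAATCC was found in 1 of the 12 windows and in 7.06% of the 32851 windows of the whole table. TATAAA was found in 2 of 12 and in 13.6% of all windows. Neither motif was present in the windows of *Kcne2* and *Aqp1* shown here, *Slc4a5* held TATAAA on the reverse strand at 127 bases before its start, and a window of *Otx2* held TAATCC on the reverse strand at 211 bases before its start. These are matches of letters and not binding sites. The sequences run 5′ to 3′ in the direction of the gene and capitals mark the motif. They are *Kcne2* (chr16:92292139-92292438, plus strand), *Aqp1* (chr6:55336049-55336348, plus strand), *Slc4a5* (chr6:83237125-83237424, plus strand) and *Otx2* (chr14:48665060-48665359, minus strand).
Kcne2: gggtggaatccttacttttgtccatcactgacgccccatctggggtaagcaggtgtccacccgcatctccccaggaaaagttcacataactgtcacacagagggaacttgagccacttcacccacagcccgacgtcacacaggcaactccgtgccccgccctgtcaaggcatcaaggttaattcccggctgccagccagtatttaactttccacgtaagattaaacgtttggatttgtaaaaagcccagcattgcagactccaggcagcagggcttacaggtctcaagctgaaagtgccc
Aqp1: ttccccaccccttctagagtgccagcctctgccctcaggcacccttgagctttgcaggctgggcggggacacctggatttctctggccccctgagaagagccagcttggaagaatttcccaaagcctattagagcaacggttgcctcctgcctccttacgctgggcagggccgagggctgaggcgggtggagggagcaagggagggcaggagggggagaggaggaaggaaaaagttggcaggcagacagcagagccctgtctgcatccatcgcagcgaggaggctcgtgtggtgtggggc
Slc4a5: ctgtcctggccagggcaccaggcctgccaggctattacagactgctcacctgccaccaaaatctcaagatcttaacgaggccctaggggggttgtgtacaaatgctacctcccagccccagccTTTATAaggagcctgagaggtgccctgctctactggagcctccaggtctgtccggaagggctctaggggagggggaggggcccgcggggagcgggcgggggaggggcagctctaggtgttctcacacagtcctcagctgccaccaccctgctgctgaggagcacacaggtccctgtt
Otx2: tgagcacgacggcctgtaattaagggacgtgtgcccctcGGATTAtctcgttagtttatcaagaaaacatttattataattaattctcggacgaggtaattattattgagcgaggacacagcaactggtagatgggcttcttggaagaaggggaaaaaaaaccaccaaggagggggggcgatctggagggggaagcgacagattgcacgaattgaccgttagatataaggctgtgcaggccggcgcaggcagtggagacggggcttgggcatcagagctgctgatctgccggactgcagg

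In the striatum and the hippocampus, the amount of *Ttr* differed more between libraries of the same group than between the genotype means. *Ttr* encodes transthyretin, the carrier of thyroid hormone and retinol-binding protein that the epithelium secretes. The frontal cortex had 1.51, 6.01 and 1.55 CPM in the WT and 0.596, 0.494 and 1.51 CPM in the mutant libraries. Striatal levels were 25.3, 25.4 and 5621 CPM in the WT and 7.86, 126 and 2.93 CPM in the mutant libraries. Hippocampal levels were 5837, 2163 and 1968 CPM in the WT and 2177, 164 and 3836 CPM in the mutant libraries. The groups overlapped in every region, and 1 striatal library had the second highest level of the 18. *Ttr* took 0.579% of all counts in striatum WT replicate 3 (95% Clopper-Pearson interval 0.576% to 0.582%) and 0.000294% in striatum KO replicate 3 (0.000233% to 0.000365%). In hippocampus WT replicate 1 the share was 0.589% (0.586% to 0.592%) and in hippocampus KO replicate 2 it was 0.0157% (0.0152% to 0.0162%). These intervals cover counting error within a single library only and not differences between animals. They may also be too narrow, because copies made by PCR are not independent molecules.

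**Figure D1:**
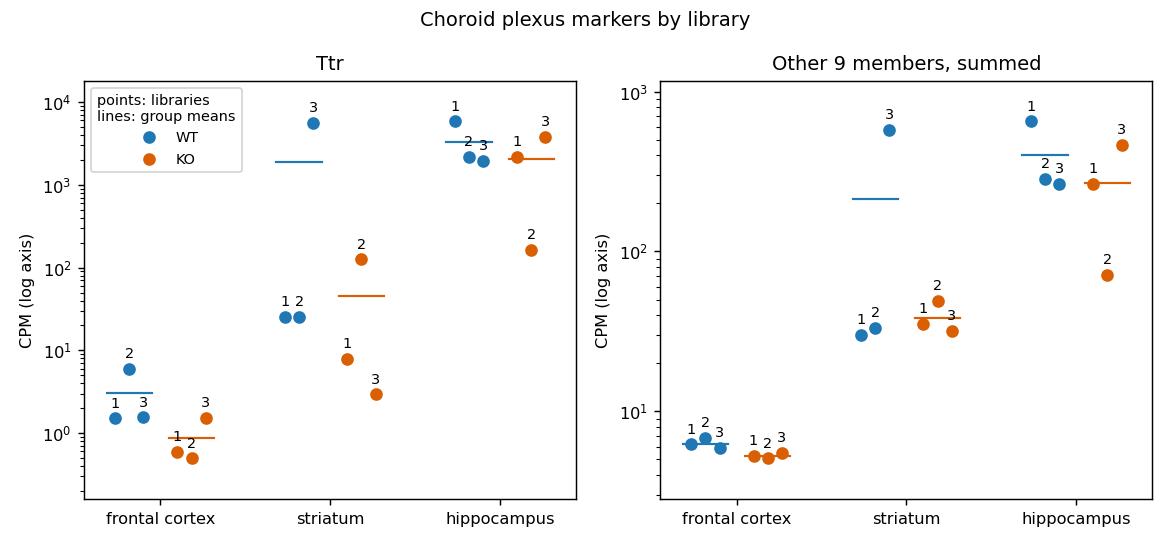
CPM on a log axis of *Ttr* (left) and of the other 9 markers summed (right) in each library of the 3 regions, in WT (blue) and mutant (orange) mice, with the replicate number above each point and a line at the mean of each group of 3. Striatum WT replicate 3 sits with the hippocampus libraries at 5621 CPM of *Ttr*, and hippocampus KO replicate 2 lies below the other 5 hippocampus libraries at 164 CPM.

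The transporters and channels of the epithelium followed the same libraries. *Aqp1*, the water channel of the apical membrane, measured 0.331, 0.252 and 25.1 CPM in WT and 0.179, 0.477 and 0.217 CPM in mutant striatum. Its hippocampal levels were 23.3, 9.63 and 9.54 CPM in WT and 11.1, 0.713 and 23.6 CPM in the mutants. Striatum WT replicate 3 lay 99.4-fold above the median of the other 5 striatum libraries. *Aqp1* had 0.369 to 1.12 CPM in the frontal cortex, and those 5 striatum libraries, at 0.179 to 0.477 CPM, were no higher.

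*Kcne2* encodes a small subunit of potassium channels. It measured 0.257, 0.324 and 25.8 CPM in WT striatum and 0.0357, 0.732 and 0.0362 CPM in mutant striatum. In the hippocampus it measured 34.9, 11.2 and 13.3 CPM in WT and 14.2, 0.461 and 23.4 CPM in mutant libraries. *Kcne2* showed the widest gap of hippocampus KO replicate 2 among the 10 markers, 24.3-fold under the lowest of the other 5 libraries. No frontal cortex library had more than 4 reads of *Kcne2*, and WT replicate 1 had 0, which allows up to 0.101 CPM by the limit of 3 reads.

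*Slc4a5*, a sodium bicarbonate cotransporter, measured 0.404, 0.324 and 45.6 CPM in WT striatum and 0.0714, 0.955 and 0.145 CPM in mutant striatum. The hippocampus gave 56.4, 17.8 and 16.6 CPM in WT and 17.7, 1.89 and 37.1 CPM in the mutants. It had 0 to 2 reads per frontal cortex library, and the library with 0 (KO replicate 3) allows up to 0.103 CPM. The 5 striatum libraries other than WT replicate 3 held 2 to 30 reads.

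*Clic6*, a member of the chloride intracellular channel family, behaved differently in the striatum. It measured 20.3, 20.03 and 105 CPM in WT and 25.2, 26.9 and 22.3 CPM in mutant striatum, so that 5 libraries with *Ttr* from 2.93 to 126 CPM held 551 to 845 reads of *Clic6*. The frontal cortex gave 10 to 21 reads per library, or 0.309 to 0.735 CPM. In the hippocampus *Clic6* measured 118, 43.5 and 51.9 CPM in WT and 48.4, 8.94 and 88.0 CPM in the mutants, and KO replicate 2 was lower than all 6 striatum libraries. Striatum WT replicate 3 was 4.70-fold above the median of the other 5 striatum libraries for *Clic6*, the smallest such ratio of the 10 markers, and the next were 17.96-fold for *Otx2* and 33.2-fold for *Kl*.

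**Figure D2:**
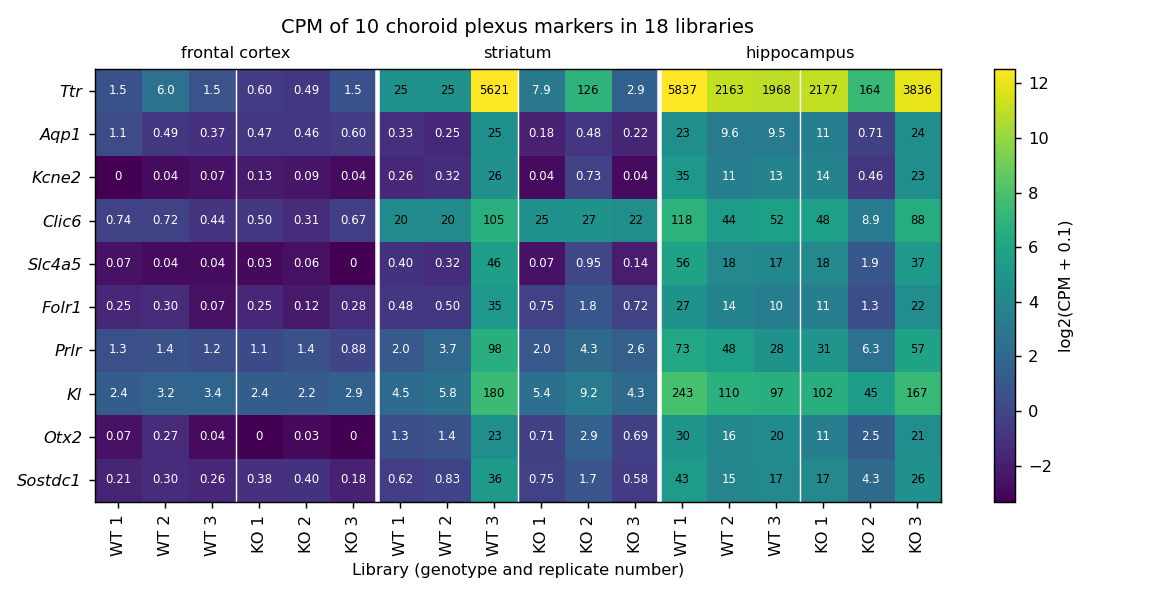
CPM of the 10 markers (rows) in the 18 libraries (columns, by region, genotype and replicate number), with colour showing log2(CPM + 0.1). Striatum WT replicate 3 is high in every row, hippocampus KO replicate 2 is low against its region in every row, and *Clic6* is at 20.03 CPM or more in all 6 striatum libraries.

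Receptors came next. *Folr1* encodes the folate receptor with which the epithelium takes folate into the cerebrospinal fluid. It measured 0.478, 0.504 and 35.0 CPM in WT striatum and 0.750, 1.78 and 0.723 CPM in mutant striatum. In the hippocampus it had 27.5, 14.1 and 10.3 CPM in WT and 10.8, 1.30 and 22.1 CPM in mutant libraries. Every frontal cortex library had 2 to 8 reads.

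*Prlr*, the prolactin receptor, measured 2.02, 3.75 and 97.6 CPM in WT striatum and 2.04, 4.26 and 2.64 CPM in mutant striatum. Hippocampal levels were 73.4, 48.1 and 27.8 CPM in WT and 30.7, 6.29 and 57.1 CPM in the mutants. Unlike *Kcne2* and *Slc4a5*, it was counted in the frontal cortex of every animal, with 25 to 45 reads or 0.878 to 1.41 CPM.

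*Kl* encodes Klotho, the coreceptor of a hormone-like fibroblast growth factor. It measured 4.52, 5.76 and 180 CPM in WT striatum and 5.43, 9.23 and 4.30 CPM in mutant striatum. In the hippocampus it measured 243, 110 and 96.9 CPM in WT and 102, 44.6 and 167 CPM in mutant libraries. The frontal cortex held 69 to 91 reads of *Kl* in all 6 libraries, or 2.19 to 3.36 CPM, while *Ttr* there ran from 16 to 158 reads. *Kl* was also the marker with the smallest gap of hippocampus KO replicate 2, 2.17-fold under the lowest of the other 5.

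The regulators were *Otx2*, a homeodomain transcription factor needed for the choroid plexus, and *Sostdc1*, a secreted antagonist of BMP and Wnt signals. *Otx2* measured 1.29, 1.40 and 23.1 CPM in WT and 0.714, 2.90 and 0.687 CPM in mutant striatum. Its hippocampal levels were 30.2, 15.8 and 19.99 CPM in WT and 11.02, 2.48 and 21.4 CPM in the mutants. Frontal cortex counts were 1 to 7 reads in WT and 0 or 1 in mutant libraries, and the 2 mutant libraries with 0 reads allow up to 0.0919 and 0.103 CPM. *Sostdc1* measured 0.625, 0.829 and 35.5 CPM in WT and 0.750, 1.69 and 0.579 CPM in mutant striatum. It had 43.5, 14.8 and 17.4 CPM in WT and 17.4, 4.32 and 25.9 CPM in mutant hippocampus, and 5 to 13 reads in each frontal cortex library.

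Compared between genes, levels were divided by exon length and given as CPM per kilobase. The median over the 6 hippocampus libraries was 1830 CPM per kilobase for *Ttr*. Then came *Clic6* (12.8), *Kl* (11.4), *Sostdc1* (9.77), *Kcne2* (7.77), *Folr1* (5.42), *Otx2* (4.24), *Aqp1* (3.94), *Slc4a5* (3.06) and *Prlr* (2.57 CPM per kilobase). The lowest *Ttr* value, 138 CPM per kilobase, lay above the highest value of any other marker (30.2, *Clic6*), whereas the ranges of all other neighbours in this order overlapped.

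In the 6 libraries with at least 50000 reads of *Ttr*, a limit chosen with the values known, the ratio of each marker to *Ttr* varied between 1.19-fold (*Slc4a5*) and 2.47-fold (*Otx2*) from lowest to highest, while *Ttr* itself ran from 1968 to 5837 CPM. These were striatum WT replicate 3 and the hippocampus libraries other than KO replicate 2. Per 1000 *Ttr* reads they held 8.12 to 9.68 reads of *Slc4a5*, 4.70 to 6.53 of *Folr1*, 6.32 to 8.86 of *Sostdc1*, 18.7 to 26.4 of *Clic6*, 4.58 to 6.76 of *Kcne2*, 3.98 to 6.16 of *Aqp1*, 32.1 to 51.0 of *Kl* and 12.6 to 22.2 of *Prlr*. *Otx2* varied most, from 4.11 in striatum WT replicate 3 to 10.2 in hippocampus WT replicate 3. Hippocampus KO replicate 2 lay above the range of those 6 libraries for 7 of the 9 other markers, with 272 reads of *Kl*, 54.4 of *Clic6*, 38.3 of *Prlr*, 26.3 of *Sostdc1*, 15.1 of *Otx2*, 11.503 of *Slc4a5* and 7.92 of *Folr1* per 1000 *Ttr* reads, and below it for *Kcne2* at 2.81. *Aqp1* at 4.35 per 1000 was inside the range. Some of these ratios rest on few reads in hippocampus KO replicate 2, namely 11 of *Kcne2*, 17 of *Aqp1*, 31 of *Folr1* and 45 of *Slc4a5*. Counting error was not part of the comparison with the range. *Ttr* made up 88.2% to 90.7% of the reads of the 10 markers in the 6 rich libraries and 8.89% to 47.0% in the frontal cortex.

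**Figure D3:**
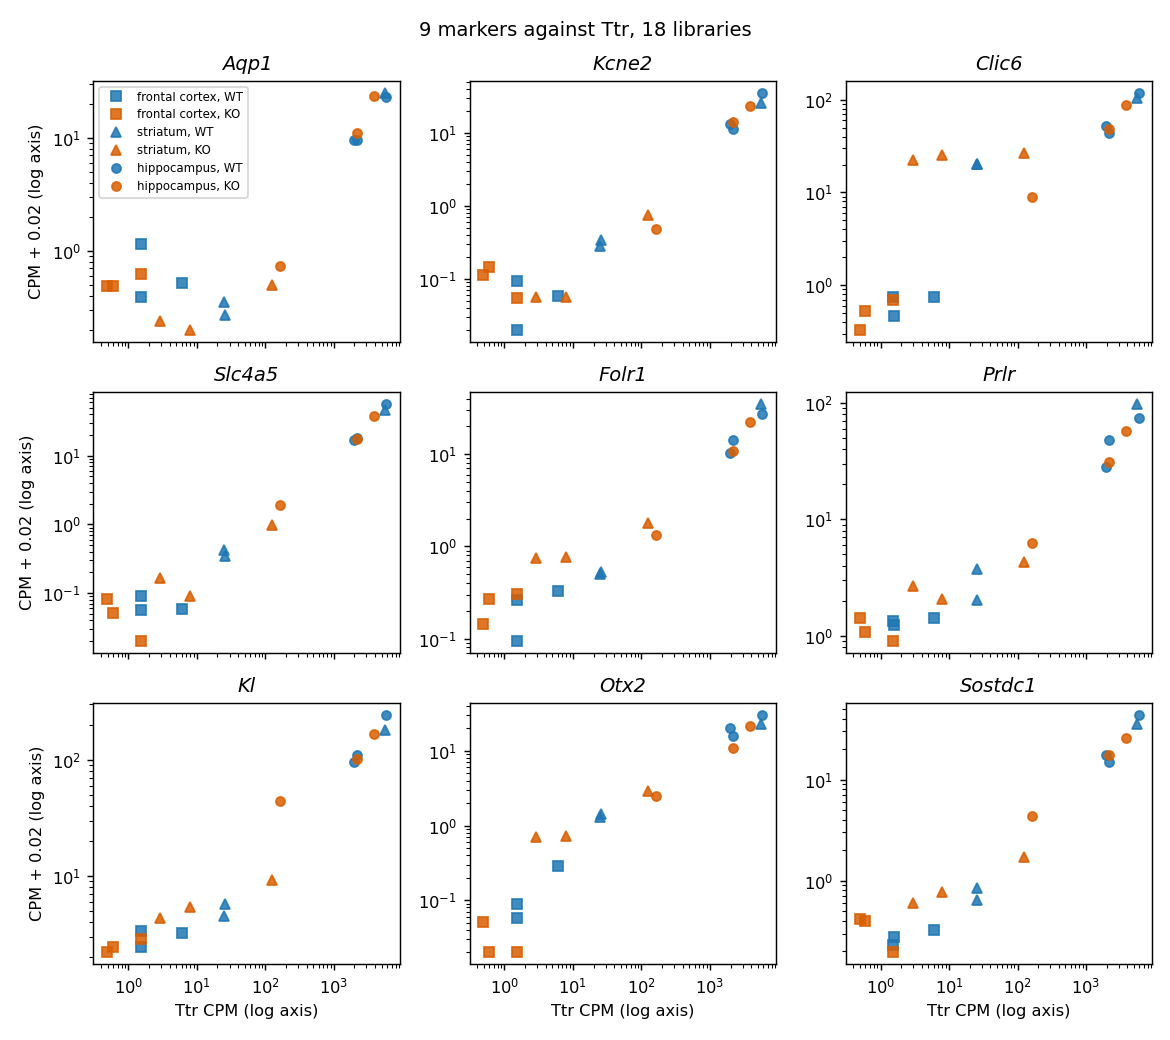
CPM + 0.02 of each of 9 markers against *Ttr* CPM in the 18 libraries, both on log axes, with squares for the frontal cortex, triangles for the striatum and circles for the hippocampus, and blue for WT and orange for mutant libraries. At the upper end the points of *Slc4a5* and *Aqp1* line up with *Ttr*, while *Clic6* stays between 20.03 and 26.9 CPM in 5 striatum libraries whose *Ttr* runs from 2.93 to 126 CPM.

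Averaged on the log2 CPM scale, the 10 markers gave a score for each library. It ran from -1.37 to -0.71 in the frontal cortex, from 0.10 to 6.30 in the striatum and from 2.23 to 6.42 in the hippocampus. With the mean of each region removed, single markers correlated with this score over the 18 libraries between 0.882 (*Clic6*) and 0.986 (*Slc4a5*), which is partly so because each marker is in the score. Points of the same animal are not independent and libraries standing apart carry much of these values.

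The 10 other genes most like the score by the same measure had correlations of 0.965 to 0.992. In order they were *Mfrp*, *Kcnj13*, *Cdkn1c*, *Enpp2*, *Cldn2*, *Slc2a12*, *Cab39l*, *Slc13a4*, *Abca4* and *Rbm47*. *Kcnj13* is an inwardly rectifying potassium channel, *Cldn2* a claudin of tight junctions, *Enpp2* the secreted enzyme autotaxin and *Cdkn1c* an inhibitor of the cell cycle. *Mfrp* measured 56.2 CPM in striatum WT replicate 3 and at most 1.65 CPM in the other striatum libraries, and 1.97 CPM in hippocampus KO replicate 2 and at least 16.6 CPM in the other hippocampus libraries. *Enpp2* measured 2511 CPM in striatum WT replicate 3 and at most 389 CPM in the other 5, and it was also at 283 to 315 CPM throughout the frontal cortex, where *Ttr* was at most 6.01 CPM. Over 13923 genes the median correlation was -0.0691, and 0.338% of them reached 0.9.

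A list of 30 other genes of the epithelium was compared with the markers to check what the list carried. Of the 30, 22 correlated with the score at 0.9 or more and the median was 0.9503. *Car12*, a carbonic anhydrase, was lowest at 0.552, followed by *Htr2c*, a serotonin receptor that neurons also express, at 0.634 and *Slc12a2*, a sodium, potassium and chloride cotransporter that many brain cells express, at 0.707. Summed, the 30 genes measured 3788 CPM in striatum WT replicate 3 against 661 to 787 CPM in the other 5, and 524 CPM in hippocampus KO replicate 2 against 1756 to 3854 CPM in the other 5. Genes of stromal and meningeal fibroblasts, 12 in number, summed to 363 CPM in striatum WT replicate 3 against 47.9 to 68.9 CPM. Most of it was the growth factor *Igf2*, at 318 CPM against 28.8 to 41.1 CPM in the other 5. *Dcn*, *Islr* and *Col1a2* of this list rose less. *Dcn* measured 10.96 against 4.07 to 7.06 CPM, *Islr* 6.98 against 1.75 to 3.93 CPM and *Col1a2* 6.42 against 4.21 to 5.06 CPM. The sum thus mostly follows *Igf2*, and which cells *Igf2* came from was not tested. Ependymal genes moved less, with a sum over 10 genes of 80.6 CPM in striatum WT replicate 3 against 35.0 to 81.4 CPM in the others, and endothelial genes were not higher there (257 CPM against 257 to 321 CPM).

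The question of the study is what the loss of *Pcm1* changes in each region, and the markers enter it as genes that could be called. No marker reached an adjusted p under 0.05 in any region with edgeR's quasi-likelihood test over 17545 genes. Of all genes tested, 1.74% were called in frontal cortex (306 genes), 0.0285% in striatum (5 genes) and 0.0171% in hippocampus (3 genes). At an unadjusted p under 0.05, 1 marker (*Ttr*) of the 6 with 10 reads or more in some frontal cortex library was lower there, 7 of 10 in striatum and 0 of 10 in hippocampus, while 7.47%, 6.98% and 5.06% of all genes were lower at that level. DESeq2 called 0 markers in each region, against 3.92%, 2.78% and 1.21% of all genes, gave no p for 9 of the 10 in the striatum and no adjusted p for 7 in the frontal cortex, and 1, 0 and 0 markers had an unadjusted p under 0.05 in frontal cortex, striatum and hippocampus. All 10 markers passed the filter of at least 10 reads in at least 1 of the 18 libraries, and 4 of them (*Kcne2*, *Folr1*, *Otx2* and *Slc4a5*) stayed under 10 reads in every frontal cortex library, so no fold change is given for these there.

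In the striatum all 10 markers had a negative log2 fold change of the mutants against WT, with a median of -3.55, while the median over all genes was -0.0023 and 50.6% of them were negative. *Ttr* had -5.37 (SE 2.30, adjusted p = 0.365), with 1890 ± 3230 CPM in WT and 45.5 ± 69.4 CPM in mutant libraries (SD, n = 3 each). *Slc4a5* had -5.23 (SE 1.90, adjusted p = 0.299) and *Kcne2* -4.94 (SE 1.84, adjusted p = 0.311). *Clic6* had the smallest difference, -0.96 (SE 0.60, adjusted p = 0.525). In each case the SD of the WT group exceeded its mean. Without WT replicate 3 the median was 0.23, 9 of 10 markers were positive and 1 (*Kcne2*, -0.05) was negative, 0 were called (0.0285% of all genes were) and 2 were higher at an unadjusted p under 0.05, as were 6.67% of all genes. *Ttr* then had 0.85 (SE 1.23, adjusted p = 0.817) and *Slc4a5* 0.15 (SE 0.91, adjusted p = 0.968). Leaving out this 1 library thus turned the direction. It kept KO replicate 2, the mutant library with the most *Ttr* (126 CPM), whose animal shows Y-linked reads as does that of WT replicate 3. In a comparison chosen after seeing the data, with both of these libraries left out and 2 of each genotype remaining, 8 of 10 markers were negative with a median of -0.43, 4 were lower at an unadjusted p under 0.05 (8.06% of all genes were) and 0 were called (0.205% of all genes were). *Ttr* had -2.23 (SE 0.34, adjusted p = 0.0605), on 25.3 and 25.4 CPM in WT and 7.86 and 2.93 CPM in the mutants, *Otx2* -0.94 (SE 0.29, adjusted p = 0.197) and *Clic6* 0.24 (SE 0.09, adjusted p = 0.279). *Kcne2*, among the 4 lower markers, had 7 and 9 reads in the WT and 1 in each of the mutant libraries of this comparison. *Aqp1*, also negative, had 5 to 9 reads in them. Both stayed under 10 reads there, so their values rest on few counts. The sign of the difference thus depended on which libraries were used, and it differed between markers.

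Of the striatal markers without that library, *Folr1* had the highest value at 1.15 (SE 0.49, adjusted p = 0.360), and *Clic6* had the least error at 0.30 (SE 0.09, adjusted p = 0.229). Its 2 remaining WT libraries measured 20.3 and 20.03 CPM and the 3 mutant libraries 22.3 to 26.9 CPM. The striatal groups overlapped for all 10 markers when all libraries were used, whereas 19% of all genes had groups that did not overlap. Every WT striatum library was run in lane 5, the mutant ones were run in lanes 3 and 4, and genotype cannot be told apart from lane here. Over all alternatives, the adjusted p of the striatal markers ran from 0.0605 to 0.994. Of the fibroblast genes 11 of 12 were negative there (median -0.58, 10 of 12 without WT replicate 3). For 6 of the 12 the groups did not overlap. Genes of the thalamus and habenula were negative in 9 of 10 (8 without that library) and endothelial genes in 9 of 10 (9 without it). Positive were 9 of 10 ependymal, and 6 of 6 striatal, 4 of 6 hippocampal and 1 of 6 cortical neuron genes. EdgeR called 0 of these genes, and their part was not tested.

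**Figure D4:**
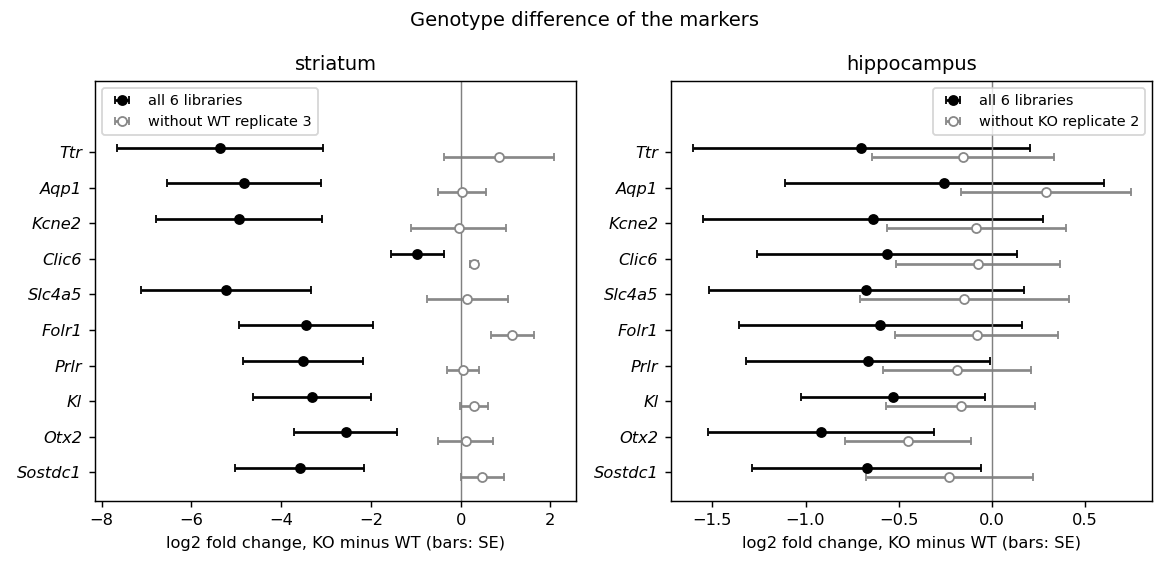
Log2 fold change of each marker, mutant minus WT, with bars for the standard error, in the striatum (left) and the hippocampus (right), for all 6 libraries (black) and without the library that stood apart (open). In the striatum the values run from -5.37 to -0.96 with all libraries and from -0.05 to 1.15 without WT replicate 3, and in the hippocampus from -0.92 to -0.25 and from -0.45 to 0.29 without KO replicate 2.

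In the hippocampus all 10 markers again had negative values, 0 of them at an unadjusted p under 0.05, and 50.1% of all genes were lower. *Otx2* had -0.92 (SE 0.61, adjusted p = 0.639), *Ttr* -0.70 (SE 0.90, adjusted p = 0.812) and *Aqp1*, nearest to 0, -0.25 (SE 0.86, adjusted p = 0.934). *Ttr* measured 3323 ± 2180 CPM in WT and 2059 ± 1839 CPM in mutant libraries (SD, n = 3 each). The median over markers was -0.65, and with the replicate block, which pairs same-numbered libraries of the genotypes, it was -0.99, with *Ttr* at -1.41 (adjusted p = 0.482). With lane as a term the median was -0.98. Without the block and without KO replicate 2 the median was -0.15, with 9 of 10 negative, 0 called and 0.0171% of all genes called. Leaving out WT replicate 1, the richest library, brought the median to -0.0046, and leaving out KO replicate 3 brought it to -1.44. The groups overlapped for 10 of 10 markers, and 17.1% of all genes had groups that did not overlap.

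Other cell type lists were read in the hippocampus libraries too. Of 10 ependymal genes 6 were negative (4 without KO replicate 2), of 6 frontal cortex neuron genes 2 (4 without it), of 6 striatal neuron genes 4 (5 without it) and of 6 hippocampal neuron genes 4 (2 without it). All 10 genes of the neighbouring thalamus and habenula were negative, with a median of -1.60, and without KO replicate 2 all 10 were negative with a median of -1.43 and 5 had an unadjusted p under 0.05. With all libraries 8 had an unadjusted p under 0.05, against 5.06% of all genes lower at that level, edgeR called 0 (0.0171% of all genes) and DESeq2 called 1 (*Lef1*, against 1.21%). Summed, they measured 263 to 676 CPM in WT and 117 to 314 CPM in mutant libraries, so the groups overlapped in the sum. For 3 of the 10 genes the groups did not overlap, against 17.1% of all genes. *Slc17a6*, among these, had 83.8, 56.2 and 117 CPM in WT and 22.0, 17.2 and 53.1 CPM in mutants. *Prkcd*, a protein kinase C of thalamic neurons, had 177, 57.7 and 133 CPM in WT and 44.1, 34.1 and 84.4 CPM in mutants. In the striatum the same list summed to 271 CPM in WT replicate 3 and to between 106 and 135 CPM in the other 5. Of the endothelial genes in the hippocampus, 10 of 10 were negative with a median of -0.40, 5 had an unadjusted p under 0.05 and 5 had groups that did not overlap (10 of 10, -0.42 and 4 at that p without KO replicate 2), and the sum was 216 to 319 CPM in WT and 200 to 212 CPM in mutant libraries. Of the fibroblast genes 11 of 12 were negative with a median of -0.51 and 2 had an unadjusted p under 0.05 (9 of 12, -0.21 and 1 without KO replicate 2), with sums of 236 to 521 CPM in WT and 124 to 267 CPM in mutant libraries. *Igf2* alone made up 128 to 355 CPM of these fibroblast sums in WT and 47.6 to 165 CPM in mutant libraries. Neither edgeR nor DESeq2 called any of these endothelial or fibroblast genes in the hippocampus (0 each). The part of these cell types in the marker levels was not tested.

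In the frontal cortex 4 markers stayed under 10 reads and the other 6 had 5 to 158 reads per library. Of the 6 markers with 10 reads or more in some library of the region, 5 had negative values, as had 51.6% of all genes. *Ttr* had -1.82 (SE 0.62, adjusted p = 0.208), and without WT replicate 2 it had -0.84 (SE 0.44, adjusted p = 0.430), when 0 markers and 0.405% of all genes were called. For the other markers with 10 reads or more in some library, the values were -0.40 for *Aqp1*, -0.38 for *Clic6*, -0.27 for *Kl*, -0.25 for *Prlr* and 0.32 for *Sostdc1*, with adjusted p from 0.526 to 0.772. The genotypes overlapped for these 6 markers, and 21.3% of all genes did not overlap in this region. A genotype effect that differed between regions, tested in a fit of all 18 libraries in which the 3 libraries of an animal were treated as independent, was called for 0 of 10 markers (adjusted p from 0.940 to 1) and for 0.0114% of all genes. At an unadjusted p under 0.05 it was also 0 of 10 markers, against 5.54% of all genes.

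The 30 other epithelial genes were counted in the same way. In the striatum 29 of 30 were negative with a median of -1.90, edgeR called 0 (0.0285% of all genes) and DESeq2, which gave an adjusted p for 11 of the 30, called 1 (*Slc12a2*, against 2.78% of all genes), and without WT replicate 3 there were 22 positive and 8 negative with a median of 0.28. In the hippocampus 30 of 30 were negative with a median of -0.50, 0 had an unadjusted p under 0.05 and edgeR and DESeq2 each called 0 (0.0171% and 1.21% of all genes), and without KO replicate 2 there were 9 positive and 21 negative with a median of -0.09. In the striatum the groups did not overlap for 3 of the 30 (*Col8a1*, *Slc12a2* and *Sulf1*), against 19% of all genes. *Slc12a2* measured 163, 151 and 195 CPM in WT and 111, 116 and 114 CPM in mutants, a log2 fold change of -0.57 (SE 0.09, adjusted p = 0.105), and -0.46 (SE 0.06, adjusted p = 0.110) without WT replicate 3. *Htr2c*, at 55.8, 56.4 and 127 CPM in WT and 96.3, 74.2 and 81.9 CPM in mutant striatum, had 0.08 (SE 0.30, adjusted p = 0.940).

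**Figure D5:**
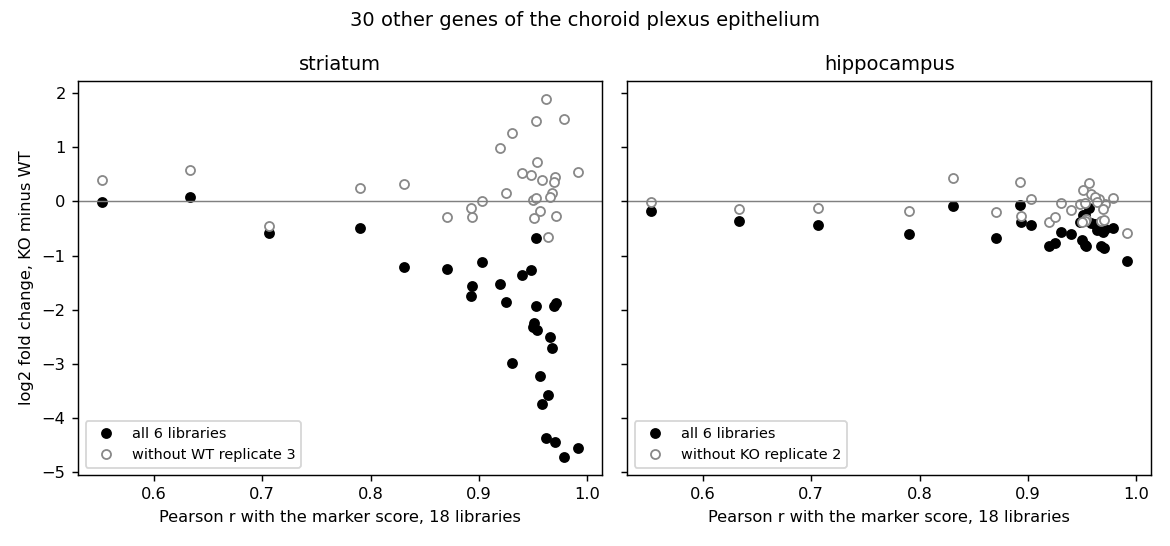
Log2 fold change, mutant minus WT, of the 30 other epithelial genes against their Pearson correlation with the marker score over 18 libraries, in the striatum (left) and the hippocampus (right), for all 6 libraries (black) and without the library that stood apart (open). With all libraries the striatal values reach down to -4.72 at correlations above 0.9, and without WT replicate 3 the median is 0.28.

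Many strongly lower genes of the mutant striatum shared the profile of the markers. Of 13932 genes with a mean log2 CPM of at least 0, 123 had a striatal log2 fold change of -1 or less, and 45 of these (36.6%) were among the 100 genes most like the marker score. Without WT replicate 3 there were 60 such genes and 0 of them were among those 100. This ranking used the same libraries and is no independent count. In the hippocampus 2 of 108 such genes were among the 100, and 0 of 113 without KO replicate 2. The frontal cortex had 0 of 35. Of the genes called in each region, 0 were among the 100.

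The common biological coefficient of variation of the striatum, the typical spread between libraries beyond counting noise, was 13.8% with all libraries and 9.80% without WT replicate 3, and 5 genes were called in each case, 4 of them the same. For the hippocampus it was 16.4% and 14.6% without KO replicate 2, with 3 genes called in each case and 2 shared. With the marker score as a covariate it was 8.42% in the striatum, and 69 genes (0.393% of all tested) were called there, among them the 5 called without it. Those 69 included the 4 Y-linked genes *Ddx3y*, *Kdm5d*, *Eif2s3y* and *Uty*, none of which was called without the score. The score and the Y-linked reads move together in these 6 libraries, so their parts in the 69 calls cannot be told apart. In the hippocampus the score as a covariate gave 4 called genes, with the 3 from the fit without it among them, and 1 in the frontal cortex. There the scores of the genotypes did not overlap (-1.30 to -0.71 in WT, -1.37 to -1.31 in mutants), but only just, with -1.299 in WT replicate 3 and -1.309 in KO replicate 1. The score there includes 4 markers under 10 reads in every library of the region.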

How the data were processed

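Stranded mRNA libraries were made from frozen tissue. The authors trimmed reads (Trim Galore, cutadapt), kept those of at least 20 bases, used STAR to map them to GRCm38, retained uniquely placed reads and deposited raw counts per Ensembl gene from HTSeq, 1 library per file and without normalization. Tool versions and the strand setting of the counting are not given in the sources used here. Lines that name no gene, 10.8% to 13.2% of the reads entering the counting, were left out. Depth is the 24950537 to 33405081 reads counted on genes per library. Counts of libraries of the same group differed by more than sampling noise in all 18 pairs. Separate libraries of a group came from separate animals.

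Each region was tested with edgeR 4.0.16 in R 4.3.3 (TMM factors, quasi-likelihood test, 17545 genes with 10 or more reads in some library, Benjamini-Hochberg adjustment, threshold 0.05), and the interaction in a fit of all 18, with no term for the animal. Standard errors were computed as |log2 fold change| / sqrt(F). Log2 CPM used a prior count of 2. DESeq2 1.42.0 was the other test, and tables used pandas 2.3.3 in Python 3.11.15. The edgeR steps were tested on simulated data. Gene positions came from GENCODE vM21 on GRCm38. The markers, the other gene lists and the comparisons were chosen with earlier results of these data known. Named genes were the markers, the 10 genes most like the score, the 4 most abundant genes of each list (in part), any list gene called by edgeR, and *Pcm1*. *Car12*, *Col8a1*, *Sulf1*, list genes called by DESeq2 or with the score, and the sex-linked genes were added with their values seen. Replicate numbers are shared by the genotypes. After removal of group means, same-numbered libraries correlated at 0.147 to 0.586 in the hippocampus, where the numbers were taken to pair libraries. Differently numbered hippocampus libraries correlated at -0.525 to 0.303, so the same-numbered pair at 0.147 lay below some of these. The pair at 0.586 joined the WT and the mutant animal with Y-linked reads. No label names a batch shared by same-numbered libraries. Same-numbered libraries correlated at 0.0438 to 0.310 in the frontal cortex and at -0.333 to 0.245 in the striatum, where the numbers were not taken to pair libraries. In WT striatum these numbers do not follow the animal numbers, so the block there joins other animals than in the hippocampus. With the replicate block, 9 genes instead of 3 were called in the hippocampus and 0 markers. Protein sequences were not used here, and 1 list gene is not reported by name.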

Additional observations from a re-analysis of the deposited data

How the results depend on the processing

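No alternative brought a marker under an adjusted p of 0.05 in any region, though DESeq2 gave no p for 9 striatal and no adjusted p for 7 frontal cortex markers. Of 26 log2 fold changes of markers followed, 15 changed sign with 1 library left out and 1 with all libraries kept, *Aqp1* in the frontal cortex, at 0.24 with lane as a term. Genes called in the frontal cortex (306) were 687 with DESeq2, 544 with no filter, 665 with the replicate block, 1 with the marker score, 29 with lane, 176 in a fit of all 18 libraries, 95 with lane added to that fit, and 11 to 825 with 1 library left out. In the striatum (5) they were 488, 65, 3, 69 and, for all 18, 54 and 8 with lane, and 2 to 5 with 1 library left out. A fit with lane within the striatum could not be made. In the hippocampus (3) they were 212 with DESeq2, 9 with the replicate block, 205 and 160 for all 18 without and with lane, and 1 to 11 with 1 library left out. With striatum WT replicate 3 and KO replicate 2 both left out, chosen after seeing the data, 36 genes and 2 of the other epithelial genes were called, the median of the markers was -0.43, and *Folr1* (0.58) and *Clic6* (0.24) changed sign. The block changed no call of a marker. In the striatum, where the numbers were not taken to pair libraries, it moved the median of the markers from -3.55 to -1.80 and *Ttr* from -5.37 to -2.02. The cause of these shifts was not tested. Of the other epithelial genes, 1 (*Slc12a2*) was called in the striatum with DESeq2, with no filter and with the score, each.

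With 1 library left out, the median of the markers in the striatum ran from -4.11 to 0.23. *Ttr* ran from -8.45 to 0.85, *Kl* from -3.87 to 0.30, *Folr1* from -4.02 to 1.15, *Clic6* from -1.33 to 0.30, *Aqp1* from -5.41 to 0.025, *Otx2* from -3.61 to 0.11, *Prlr* from -4.07 to 0.054, *Slc4a5* from -7.11 to 0.15 and *Sostdc1* from -4.21 to 0.48, the upper end being without WT replicate 3. In the hippocampus *Kcne2* ran from -1.44 to 0.052, *Kl* from -1.06 to 0.0047, *Clic6* from -1.33 to 0.017, *Aqp1* from -1.26 to 0.31 and *Slc4a5* from -1.63 to 0.14, and *Aqp1* in the frontal cortex from -0.68 to 0.23. Values of the markers themselves from the fit with the score are not given, since the score is made of them. Of the 10 genes most like the score, 6 remained with group means removed and 3 by Spearman correlation.

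Counts under 10 in the frontal cortex limit 4 markers there, and 3 libraries per group with 1 standing apart limit the striatum.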

Other observations

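*Ace*, the angiotensin-converting enzyme, was the epithelial gene with the fourth lowest correlation with the marker score, 0.791. It measured 56.1, 40.8 and 148 CPM in WT and 59.3, 47.2 and 66.9 CPM in mutant striatum, and its striatal groups overlapped. Ependymal genes gave positive values in the mutant striatum, 9 of 10 with all libraries, while 50.6% of all genes were negative, and 10 of 10 without WT replicate 3, where the median was 0.71. EdgeR called 0 in both fits (0.0285% of all genes in each), DESeq2 called 1 (*Tmem212*, against 2.78% of all genes) and the fit with the marker score called 1 (*Ak7*, adjusted p = 0.0296 with edgeR, against 0.393% of all genes). With edgeR 6 of the 10 were higher at an unadjusted p under 0.05 without WT replicate 3, against 6.67% of all genes. With all libraries 3 were higher at that level, a fit for which only the share of lower genes (6.98%) was counted. The groups did not overlap for 1 of the 10, against 19% of all genes. *Foxj1*, the regulator of motile cilia, measured 14.1, 24.3 and 32.9 CPM in WT and 21.6, 30.4 and 20.1 CPM in mutant striatum. *Ccdc153* measured 3.20, 4.79 and 7.44 CPM in WT and 8.18, 10.8 and 6.73 CPM in mutant striatum. The groups overlapped for each of these genes.

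Striatal neuron genes were positive in 6 of 6 in the mutant striatum, where edgeR called 0 of them (0.0285% of all genes), DESeq2 called 4 (against 2.78% of all genes) and the fit with the marker score called 1 (*Drd1*, adjusted p = 0.0413 with edgeR, against 0.393%). *Drd1*, the D1 dopamine receptor, was at 323 to 430 CPM in WT and 547 to 607 CPM in mutant libraries (log2 fold change 0.61, SE 0.11, adjusted p = 0.123 with edgeR, and 0.51, SE 0.09, adjusted p = 0.113 without striatum WT replicate 3). In the frontal cortex *Drd1* was the 1 list gene called by edgeR, at 0.68 (SE 0.10, adjusted p = 0.0177), and it was no longer called without WT replicate 2, at 0.67 (SE 0.12, adjusted p = 0.0722), or with the marker score (adjusted p = 0.180). DESeq2 called *Drd1*, *Prkcd* and *Flt1* of the lists there (3.92% of all genes) and *Drd1* and *Lef1* in the hippocampus (1.21%). In the striatum DESeq2 also called the fibroblast genes *Dcn*, *Ogn* and *Islr*, which were lower, *Lamp5* of the frontal cortex neurons, which was higher, and *Prox1* of the hippocampal neurons, which was lower, and the fit with the marker score also called *Flt1* of the endothelium (adjusted p = 0.0498 with edgeR).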
